A study of Mus musculus with 2 samples.

Results

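The boundaries described here are the domain boundaries that lie in gene deserts, long stretches of chromosome without protein-coding genes, in mouse olfactory sensory neurons. They were chosen from the deposited list by position alone. A boundary was taken where the midpoint of its 5 kb bin lay on an autosome, outside every protein-coding gene body and more than 100 kb from the nearest protein-coding transcription start site (TSS) of the GENCODE M21 annotation. Each gene counted with 1 TSS, the 5′ end of its annotated body. The rule took 1393 boundaries, 19.4% of the 7169 on autosomes, out of 7576 in the whole list. With the start of every transcript of these genes counted, it would take 1254. The list came from in situ Hi-C, a method that joins and sequences pieces of DNA that were near each other in the nucleus. The cells were mature neurons sorted for the receptor gene Olfr17 (P2) and came from P2-GFP mice of the strain 129P2/OlaHsd, adult and of mixed sex, and from their olfactory epithelium. The 2 biological replicates, of 23000 and 20000 cells, form 1 group with no treatment and no control group, and their contacts were combined before boundaries were called. No expression was measured, so the cell type could not be checked against markers. With 1 pooled list the spread between animals is unknown, so no test was made and every value below describes this map. The sequencing depth is not given in the labels.

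Chromosomes fold into domains within which contacts are frequent, and at a domain boundary contacts between the sides are few. Many boundaries in mammals hold sites for CTCF, a zinc-finger protein that stops loop extrusion by cohesin, and many others lie at active promoters. Gene deserts often flank genes that control development, and they can hold distant enhancers, so that a boundary inside a desert can limit which of its flanking genes an enhancer reaches. The locus of Sox9, a transcription factor of cartilage and gonad development, is a well-known case, since a boundary in the desert next to it separates its domain from that of the potassium channel gene Kcnj2.

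Each boundary has a score in the deposited list, for which no unit is stated, and a class, Strong or Weak. Strong boundaries had scores of at least 0.5002 and Weak ones of at most 0.4996, and no boundary scored below 0.2. The desert boundaries were mostly Weak. Of the 1393, 363 were Strong, 26.1% (95% interval 23.8% to 28.4%), against a background of 54.6% over all autosomal boundaries and 61.5% over those outside deserts. Their median score was 0.314 (interval 0.301 to 0.323), against 0.640 for the other autosomal boundaries, a difference of -0.326. Scores under 0.3, near the lower limit of the list, made up 46.9% of desert boundaries and 16.5% of the others. Intervals are exact binomial for shares, exact Poisson for densities and from order statistics for medians. They cover counting error only and treat positions as independent.

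**Figure D1:**
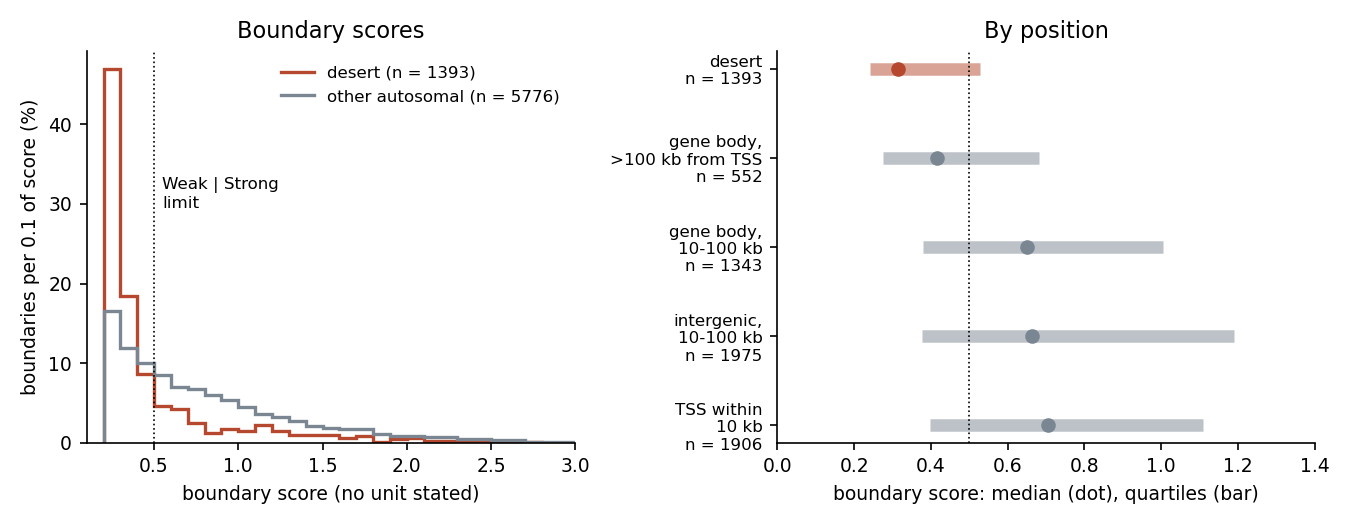
The left panel plots the share of boundaries (%) in each 0.1 step of boundary score, for the 1393 desert boundaries and the 5776 other autosomal boundaries, with a dotted line at the limit between Weak and Strong (the axis ends at a score of 3). The right panel gives the median and quartiles of the score by position, and the desert boundaries have the lowest median of the 5 classes, 0.314.

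Sequences matching the CTCF consensus near these boundaries are shown because CTCF sites are the best-known feature of boundaries away from genes. The reference genome was searched on both strands for the CTCF core consensus and for a stricter consensus, which fixes more bases and is 2 bases longer, so that every strict match overlaps a core match. These are matches of letters and not measured binding. Of the desert boundaries named below, the 6 shown have a strict match within 10 kb of the midpoint and are among the 10 highest scores or between genes known for long-range regulation. Each run of 42 bases is from the GRCm38 reference (C57BL/6J), 5′ to 3′ on the strand of the match, with the 14 matching bases in capitals.
Kcnj2 to Sox9, Strong, right of the midpoint: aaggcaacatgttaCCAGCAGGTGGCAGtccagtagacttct
Kcnj2 to Sox9, Strong, left of the midpoint: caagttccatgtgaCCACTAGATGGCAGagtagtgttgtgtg
Slc7a14 to Kcnmb2, Strong: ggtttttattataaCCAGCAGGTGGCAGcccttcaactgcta
Caln1 to Galnt17, Strong: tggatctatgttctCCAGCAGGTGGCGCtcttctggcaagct
Egfem1 to Mecom, Strong: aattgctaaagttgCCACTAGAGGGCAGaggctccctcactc
Bcl11a to 5730522E02Rik, Weak: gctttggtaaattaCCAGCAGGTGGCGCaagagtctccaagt
Ebf1 to Clint1, Weak: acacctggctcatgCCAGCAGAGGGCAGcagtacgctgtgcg

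The first match at Kcnj2 and Sox9 lies at chr11:111537828-111537869, on the plus strand, 0.348 kb from the midpoint of a boundary with a score of 2.26. The other match there lies at chr11:111532640-111532681, on the minus strand, 4.84 kb to the left. The match between Slc7a14 and Kcnmb2 is at chr3:31769360-31769401 (plus strand, 1.88 kb from the midpoint, score 2.36), and that between Caln1 and Galnt17 at chr5:130859893-130859934 (minus strand, 2.41 kb, score 2.34). Every match fits the whole consensus by construction, at low scores as at high ones. The Bcl11a match, at chr11:25301332-25301373 on the minus strand, lies 3.85 kb from a boundary with a score of 0.458. The Ebf1 match, at chr11:45008288-45008329 on the minus strand, lies 4.19 kb from one with a score of 0.341. The Egfem1 and Mecom match, at chr3:29739479-29739520 on the plus strand, lies 3.001 kb from one with a score of 0.689.

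Desert sequence was thinly supplied with Strong boundaries and not with Weak ones. Positions that meet the rule make up 750.0 Mb, 31.3% of autosomal sequence, and 0.929% of their 149995 bins of 5 kb hold a boundary. That is 1.86 boundaries per Mb (1.76 to 1.96), against 3.51 per Mb (3.42 to 3.60) in the rest of the autosomes, a ratio of 0.529. Strong boundaries stood at 0.484 per Mb (0.436 to 0.536) in deserts and 2.16 per Mb (2.09 to 2.23) elsewhere, a ratio of 0.224. Weak boundaries stood at 1.37 per Mb (1.29 to 1.46) in deserts and 1.35 per Mb (1.29 to 1.41) elsewhere, so these intervals overlap. Deserts held 9.27% of the Strong autosomal boundaries and 31.7% of the Weak ones. The median score, the Strong share and the density were each lower in deserts than in the rest of the same chromosome on 19 of 19 autosomes.

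The low scores were not shared by all boundaries outside promoters. Boundaries with a TSS within 10 kb had a median score of 0.704 and 66.5% were Strong (n = 1906). Intergenic boundaries 10 to 100 kb from a TSS had a median of 0.663 and 62.1% were Strong (n = 1975), close to the values of boundaries in gene bodies at the same distance, 0.651 and 62.8% (n = 1343). Boundaries inside gene bodies but over 100 kb from a TSS lay nearest to the desert boundaries, with a median of 0.415 and 39.5% Strong (n = 552). Strong desert boundaries, once present, had a median score of 0.905, against 0.940 for Strong boundaries elsewhere. Of the 717 autosomal boundaries in the highest-scoring 10% (scores of at least 1.52), 55 lay in deserts, and 2 of the highest 100 did.

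Intergenic boundaries 90 to 100 kb from a TSS, just outside the rule, had a median score of 0.604 and 45 of 78 were Strong. Those 100 to 110 kb from a TSS, just inside it, had a median of 0.511 and 29 of 57 were Strong.

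Within deserts the Strong boundaries thinned out with distance from a TSS, while the Weak ones became denser. The density of all desert boundaries was 1.98 per Mb at 100 to 200 kb from a TSS, 1.66 at 200 to 300 kb, 1.81 at 300 to 500 kb, 1.86 at 500 to 1000 kb and 1.96 beyond 1000 kb. Strong boundaries stood at 0.909 per Mb (0.784 to 1.05) in the nearest of these classes and at 0.149 per Mb (0.0771 to 0.261) in the farthest. Weak boundaries stood at 1.07 per Mb (0.931 to 1.22) in the nearest and 1.82 per Mb (1.53 to 2.14) in the farthest. Accordingly the Strong share was 46.0% of 413 boundaries, 31.2% of 218, 18.1% of 293, 12.9% of 311 and 7.59% of 158, in the same order. The median score was 0.460 in the nearest class and 0.267 in the farthest.

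**Figure D2:**
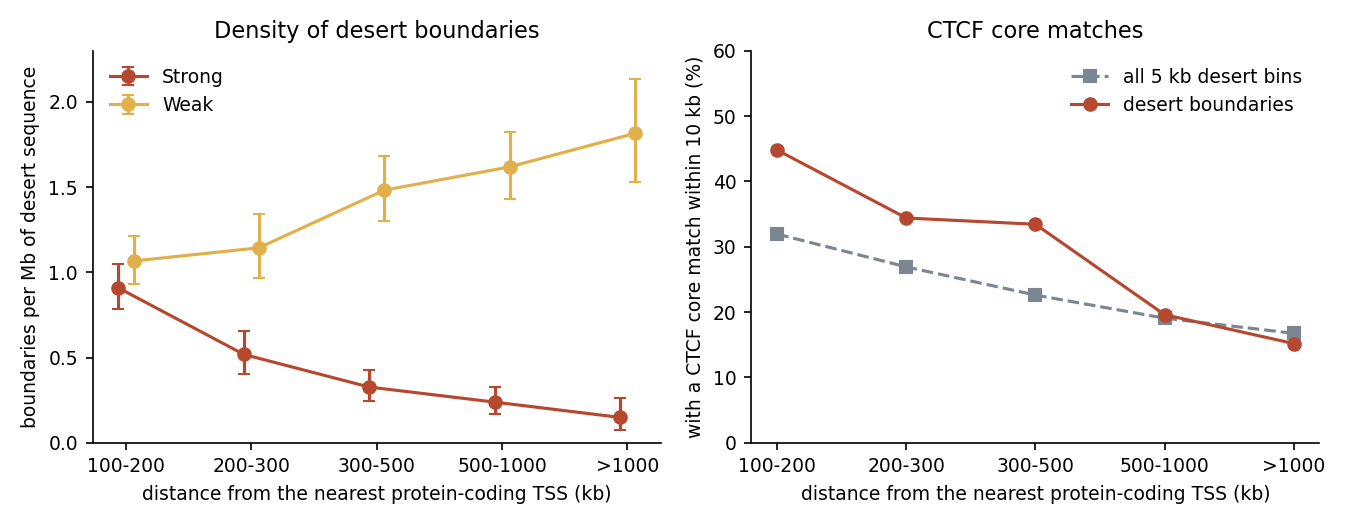
The left panel plots Strong and Weak boundaries per Mb of desert sequence (bars are 95% Poisson intervals) against distance from the nearest protein-coding TSS in kb, with Strong falling from 0.909 to 0.149 per Mb and Weak reaching 1.82 per Mb. The right panel plots the share (%) with a CTCF core match within 10 kb for desert boundaries and for all desert bins in the same distance classes, and the lines meet beyond 500 kb.

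GC content and repeats moved with that distance, as did the ease of placing reads around the boundaries. Their part in the change of density was not tested, apart from a split by GC. In windows of 50 kb on each side, GC content around the boundaries was 41.5% in the nearest class and 37.1% in the farthest. Repeats made up 33.4% and 42.5% of the boundary bins. Uniquely placed reads, estimated by aligning pieces of the reference back to it, made up 87.1% in the nearest class and 82.6% in the farthest. Over all desert bins of these classes they made up 86.4% and 85.2%. Around Strong desert boundaries they made up 88.15%, and around Weak ones 84.2%. Desert boundaries with GC at or below the median of desert bins (38.8%) had 0.440 Strong boundaries per Mb at 100 to 200 kb and 0.144 beyond 1000 kb, with values between 0.182 and 0.211 in the 3 classes between. Those above it had 1.05 per Mb at 100 to 200 kb and 0.390 at 500 to 1000 kb. Inside gene bodies the Strong share was likewise 46.9% of 290 boundaries at 100 to 200 kb from a TSS and 18.4% of 49 at 500 to 1000 kb.

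Desert boundaries at the end of a gene body had higher scores than those farther from one. Since the TSS of each such gene is over 100 kb away, a desert boundary within 10 kb of a gene body always lies at the 3′ end of a long gene. There were 45 such boundaries, 3.23% of the 1393, while 1.08% of desert bins lay that close. They stood at 5.57 per Mb, with a median score of 0.879, and 34 of them (75.6%, interval 60.5% to 87.1%) were Strong. Their median distance from a TSS was 186.7 kb, against 330.2 kb for all desert boundaries. The part of that distance in these scores was not tested. The 218 boundaries 10 to 100 kb from a gene body had a median of 0.490 and 49.5% were Strong. The 1130 over 100 kb from any gene body had a median of 0.288 and 19.6% were Strong. Among the gene ends, chosen after their values were seen, were those of the muscarinic receptor gene Chrm3 (score 2.02, 7.99 kb from the body), of Hira, which encodes a histone chaperone (1.97, 7.19 kb), of Auts2 (1.67, 4.83 kb) and of the phosphatase gene Phlpp1 (1.54, 3.25 kb).

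A CTCF core match lay within 10 kb of 443 desert boundaries, 31.8% (29.4% to 34.3%), against 24.5% of desert bins and 65.5% of the other autosomal boundaries. Strong desert boundaries had one in 46.0% of cases (40.8% to 51.3%) and Weak ones in 26.8% (24.1% to 29.6%). The Strong ones lay at a median of 191.3 kb from a TSS and the Weak ones at 395.1 kb. Desert bins with a core match fell from 31.9% at 100 to 200 kb to 16.8% beyond 1000 kb. The strict consensus matched near 97 desert boundaries, 6.96% (5.68% to 8.43%), against 2.06% of desert bins. It matched near 16.3% of the Strong (12.6% to 20.5%) and 3.69% of the Weak desert boundaries (2.62% to 5.03%). Among Strong boundaries outside deserts the share was 19.4% (18.1% to 20.7%), an interval that overlaps that of the Strong desert boundaries. For the core match it was 71.3% (69.8% to 72.8%), above the 46.0% of the Strong desert boundaries, and these intervals do not overlap. The bins differed too. Outside deserts 49.7% of bins had a core match within 10 kb and 6.21% a strict one, against 24.5% and 2.06% in deserts.

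The 97 desert boundaries with a strict match had a median score of 0.660 (0.535 to 0.783) and 60.8% were Strong. The 1296 without one had a median of 0.305 (0.291 to 0.314) and 23.5% were Strong. Divided by score into 5 groups of nearly equal size, the lowest held a strict match in 1.79% of cases and the highest, with scores from 0.640 to 2.74, in 18.3%. Beyond 500 kb from a TSS the core share was near that of desert bins, at 19.6% against 19.1% at 500 to 1000 kb and 15.2% against 16.8% beyond 1000 kb. To the left of the midpoint 36 of 57 strict matches were on the minus strand, and to the right 26 of 48 were on the plus strand. The minus strand held 155 of the 299 core matches to the left, and the plus strand 169 of the 297 to the right.

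**Figure D3:**
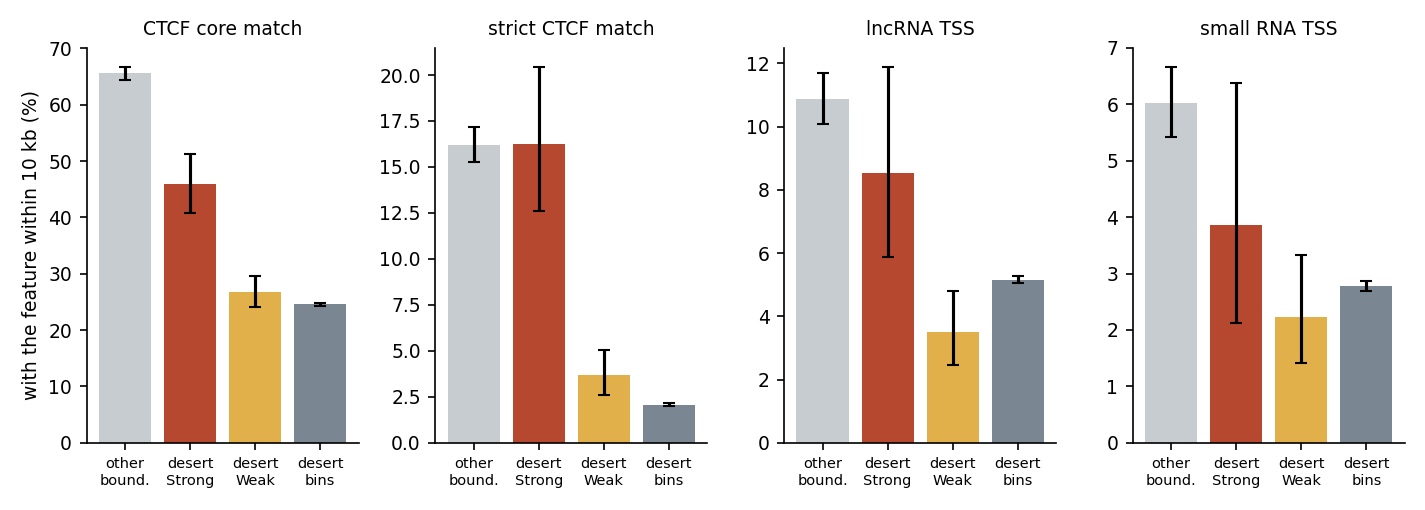
Bars give the share (%) with a CTCF core match, a strict CTCF match, a lncRNA TSS or a small RNA TSS within 10 kb, for the other autosomal boundaries, Strong and Weak desert boundaries and all desert bins, with 95% binomial intervals. Strict matches lie near 16.3% of Strong desert boundaries and 2.06% of desert bins. Small RNA TSSs lie near 3.86% of Strong desert boundaries and 2.78% of desert bins.

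Non-coding TSSs were about as frequent near desert boundaries as in desert sequence at large. A TSS of a long non-coding or small RNA gene lay within 10 kb of 99 desert boundaries, 7.11% (5.81% to 8.58%), against 7.72% of desert bins and 16.0% of the other autosomal boundaries. Of bins outside deserts, 12.2% had one. The share was 11.3% of Strong desert boundaries (8.23% to 15.01%) and 5.63% of Weak ones (4.30% to 7.22%). Strong ones lay nearer to a protein-coding TSS, at a median of 191.3 kb against 395.1 kb. Over desert bins the share fell likewise, from 10.5% at 100 to 200 kb from such a TSS to 3.64% beyond 1000 kb. The part of that distance was not tested. Long non-coding RNA genes made up most of it, with a TSS near 67 desert boundaries (4.81%, against 5.16% of bins), of which 31 were Strong. Small RNA genes had a TSS near 37 (2.66%, against 2.78% of bins) and miRNA genes near 8 (0.574%, against 0.703% of bins). Pseudogenes, which are not counted in these figures, began within 10 kb of 6.46% of desert boundaries and 7.66% of bins. The 44 desert boundaries with both a core match and a non-coding TSS had a median score of 0.563, and 24 were Strong. The 874 with no core match, no non-coding TSS and no gene end within 10 kb had a median of 0.291 and 18.7% were Strong.

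The 8 non-coding TSSs closest to a midpoint lay between 0.057 and 0.322 kb from it, at boundaries that were Weak in 7 of 8 cases. Of the 99 desert boundaries with a non-coding TSS within 10 kb, 41.4% were Strong, against 26.1% of all desert boundaries. The 8 closest TSSs belong to the snRNA genes Gm22977 and Gm23453, the miRNA gene Gm22132, the rRNA gene Gm25659, the processed transcript AC161438.1 and the lincRNA genes A530046M15Rik, Gm48605 and 4930520P13Rik. The Strong boundary among these 8 was at A530046M15Rik, whose TSS lay 0.257 kb from the midpoint of a boundary with a score of 0.712. That boundary, at chr13:15805001-15810000, separates Gli3, a transcription factor of Hedgehog signalling, from Inhba, which encodes a subunit of activin. The promoter of this lincRNA gene, at chr13:15806993-15807292 on the plus strand, is printed from RefSeq (GRCm38.p6) because the boundary bin covers it, with the 50 bases from the start site on in capitals.
A530046M15Rik: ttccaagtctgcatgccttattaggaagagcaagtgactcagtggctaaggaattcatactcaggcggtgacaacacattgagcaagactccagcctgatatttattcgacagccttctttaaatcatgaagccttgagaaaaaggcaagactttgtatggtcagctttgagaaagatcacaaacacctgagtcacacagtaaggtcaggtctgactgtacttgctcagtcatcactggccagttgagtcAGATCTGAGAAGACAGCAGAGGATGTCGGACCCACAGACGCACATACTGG

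No CTCF core match lies in these 300 bases, of which 46.0% are G or C, while 1.22% of all promoters of that length in the RefSeq table hold one. The highest score among the 8, after that of A530046M15Rik, was 0.498, at the Weak boundary of Gm22132 between Zfp281 and Nr5a2. The lowest was 0.201, at 4930520P13Rik between Med10 and Ice1.

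Flanking genes were taken as the protein-coding gene bodies nearest on each side. Developmental regulators, that is 445 transcription factors and 174 signalling genes by name, flanked 215 desert boundaries, 15.4% (13.6% to 17.4%). They flanked 16.8% of desert bins, so that deserts next to these genes held boundaries (1.71 per Mb) at about the rate of all deserts (1.86 per Mb). Transcription factors alone flanked 12.4% of the boundaries and 13.3% of the bins. Neural adhesion and guidance genes, such as cadherins, protocadherins and teneurins, flanked more of them, 361 boundaries or 25.9% (23.6% to 28.3%), and 25.5% of bins. Channel and transmitter receptor genes flanked 98 (7.04%, against 6.75% of bins) and chemoreceptor genes 7 (0.503%, against 0.749% of bins). Genes known by a number alone flanked 149 (10.7%, against 12.4% of bins). At 613 (44.0%, against 42.5% of bins), neither flanking gene was on any list. The lists were matched by gene name and are approximate. For example, Auts2 counted as a developmental transcription factor and Hlx was on no list.

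The Strong share varied between these groups. Next to developmental regulators 71 of 215 were Strong, 33.0% (26.8% to 39.7%), with a median score of 0.357. Next to neural adhesion genes 66 of 361 were Strong, 18.3% (14.4% to 22.7%), with a median of 0.279. Distance from a TSS moved with the groups. At 100 to 300 kb from a TSS the Strong share next to developmental regulators was 41.2%, against 40.9% of all desert boundaries at that distance and 30.1% next to adhesion genes (28 of 93). Beyond 300 kb it was 23.8% (24 of 101), against 13.8% of all (105 of 762) and 14.2% next to adhesion genes (38 of 268). A core match lay within 10 kb of 43.3% of the boundaries next to developmental regulators, where 27.1% of bins had one. Next to adhesion genes the shares were 21.3% and 20.3%. With no flanking gene on a list they were 36.1% and 25.7%. Next to channel genes they were 24.5% and 23.1%, next to genes known by a number 26.2% and 25.6%, and next to chemoreceptor genes 28.6% and 29.6%. The part of TSS distance in these shares was not tested.

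**Figure D4:**
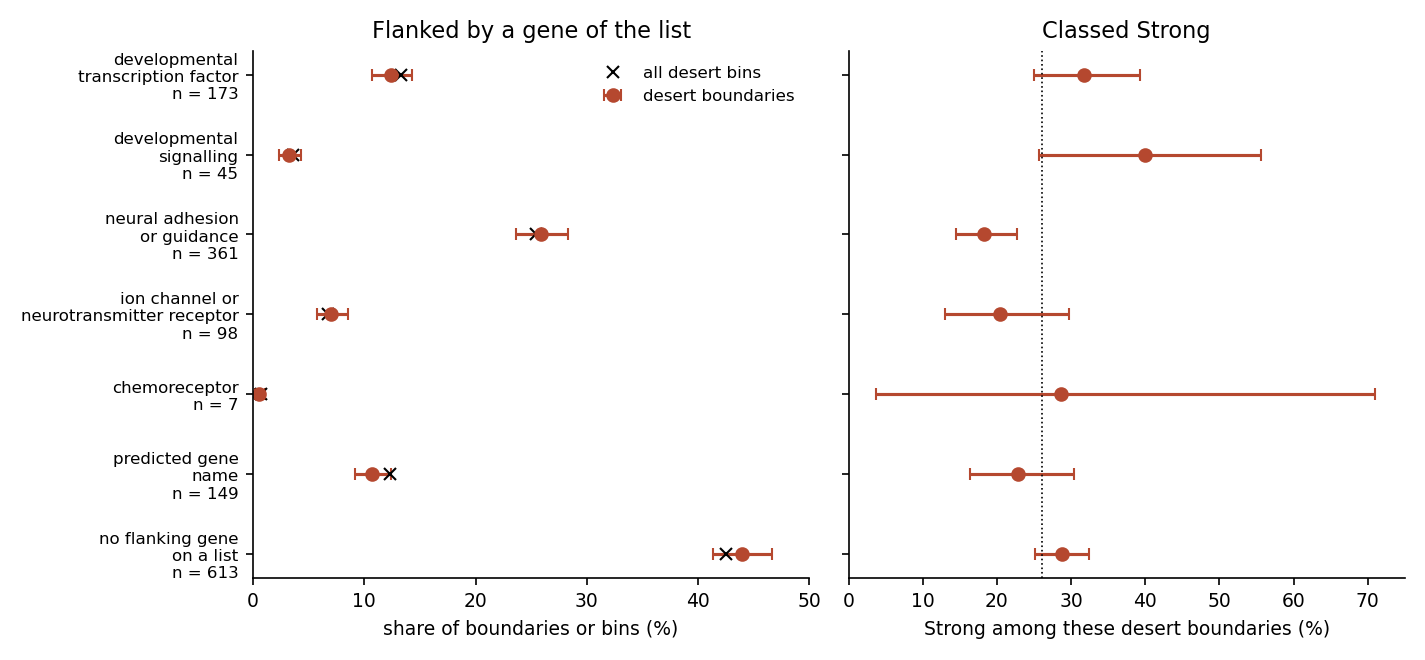
The left panel gives, for each list of flanking genes, the share (%) of desert boundaries (dots, 95% binomial intervals) and of all desert bins (crosses) that have a gene of the list on at least 1 side. The right panel gives the Strong share (%) among those boundaries, with a dotted line at 26.1% for all desert boundaries. Dots and crosses lie close together on the left, while on the right adhesion genes (18.3%) lie below the line.

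Among loci known for long-range regulation, 57 genes were listed, 42 flanked desert sequence and 27 flanked a desert boundary. The 58 boundaries in their 28 intervals had a median score of 0.326, from 0.202 to 2.26, and 12 (20.7%) were Strong, against 26.1% of all desert boundaries. They lay at a median of 469.2 kb from a TSS, against 330.2 kb for all desert boundaries. Next to Sox9 there were 3. The boundary at chr11:111535001-111540000, 461 kb beyond the body of Kcnj2 and 1245 kb before that of Sox9, scored 2.26 and was the fifth highest of all desert boundaries. At 575 kb from Sox9 there was a Weak boundary (0.319), and on its other side, towards Slc39a11, a Strong one scored 0.934.

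The single desert boundary by Sox2, a stem cell factor, scored 0.374 at 465 kb. Both of those between Slc4a3 and Epha4 were Weak (0.221 and 0.231), as was the one between Epha4, an ephrin receptor of limb and axon patterning, and Pax3, a neural crest factor (0.397). The 1 by Nr2f1, a nuclear receptor of cortical patterning, scored 0.233. Of the 8 between Zeb2 and Acvr2a, 7 were Weak and 1 was Strong, with a score of 0.905 at 2315 kb from Zeb2, a repressor of epithelial genes.

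Strong ones lay next to the homeobox genes Meis1 and Irx1. Meis1 had 3 desert boundaries, with scores of 1.50 towards Spred2, and 0.657 and 0.301 towards Etaa1. Both between Adamts16 and Irx1 were Strong, with scores of 1.68 and 0.795, while those between Irx2 and Irx4 (0.426) and between Irx3 and Irx5 (0.441), pairs within the Iroquois clusters, were Weak. Ebf1, a factor that binds enhancers of olfactory receptor genes, had 4 towards Clint1, with scores of 0.721, 0.341, 0.270 and 0.211, of which the first was Strong. Emx2, a homeobox gene of forebrain and olfactory epithelium, had 1 Weak boundary (0.323).

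Of 7 desert boundaries with a developmental transcription factor on both sides, 2 were Strong. They lay between Rfx3 and Glis3 (score 1.15) and between Tcf21 and Eya4 (0.916), the latter 0.462 kb from the end of the Eya4 body. The others were the 2 Iroquois boundaries above and 3 between Sall1 and Tox3, with scores of 0.446, 0.352 and 0.233.

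The 10 highest scores were on 7 chromosomes. Within 10 kb, 4 had a strict CTCF match and 4 a core match, against 16.3% and 46.0% of all Strong desert boundaries. A TSS lay within 150 kb of 5 of the 10, while the median TSS distance of Strong desert boundaries was 191.3 kb. The highest, 2.74, lay at chr1:30750001-30755000 between Gm597 and Phf3, 49.8 kb from the Phf3 body, and ranked 36 among all autosomal boundaries. Next came those between Hpcal1 and 5730507C01Rik (2.42, chr12:17830001-17835000), Slc7a14 and Kcnmb2 (2.36), Caln1 and Galnt17 (2.34), Kcnj2 and Sox9 (2.26) and Cobl and Pom121l12 (2.25). Sall3 and Galr1 (2.25), Fstl5 and Rapgef2 (2.14), Pld5 and Cep170 (2.11) and Igsf11 and Lsamp (2.11) completed them. For 3 of the 10 under 80% of reads around the boundary could be placed uniquely. Of all 1393 desert boundaries, 1039 had at least 80%. At Hpcal1 it was 57.1%, and no boundary followed for 3260 kb to its right. The 5 lowest scores, between 0.2001 and 0.2003, lay between Nmur2 and Gria1, Pcdh7 and G6pd2, Eno1b and Dtwd2, Lingo2 and 1700009N14Rik, and 4931408C20Rik and Gm597.

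The boundaries called in deserts split them into segments, and most of these boundaries were Weak. Contacts within the segments were not examined. Of 1844 stretches without a protein-coding gene that hold desert sequence, 38 of them at chromosome ends, 761 held a desert boundary and 1083 held none. A single one lay in 484, 2 to 4 in 226 and 5 or more in 51, which together held 329. In 419 stretches all desert boundaries were Weak, 323 had 1 Strong boundary and 19 had 2 or more. Width went with content. Of 753 stretches of 200 to 500 kb, 27.6% held a desert boundary, and of 26 wider than 3000 kb, all did, while the density was 1.89 per Mb in both of these classes.

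The widest stretches held many Weak boundaries and at most 1 Strong one. Between Tenm3, a teneurin adhesion gene, and Aga lay 4668 kb with 12 boundaries, the most of any stretch. Of these 11 were Weak, with scores of 0.210 to 0.394, and 1 was barely Strong (0.527). Between the protocadherin genes Pcdh20 and Pcdh9 (4542 kb) lay 7, with 1 Strong at 1.42. Celf4 and Pik3c3 (4519 kb) had 6, all Weak, Olfm4 and Pcdh17 (4420 kb) 7 with 1 Strong at 1.52, and Cntnap5b and Cdh20 (4283 kb) 9 with 1 Strong at 1.58. Nxph1 and Ndufa4 (2651 kb) held 11 and Slc39a10 and Tmeff2 (4008 kb) 10, all Weak. Cdh6 and Cdh9 held 10 with 1 Strong at 0.625, and Cdh2 and Dsc3 10 with 1 Strong at 0.609. The 5 desert boundaries farthest from a TSS, up to 2691 kb away between Pcdh20 and Pcdh9, were all Weak, with scores of 0.211 to 0.454.

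**Figure D5:**
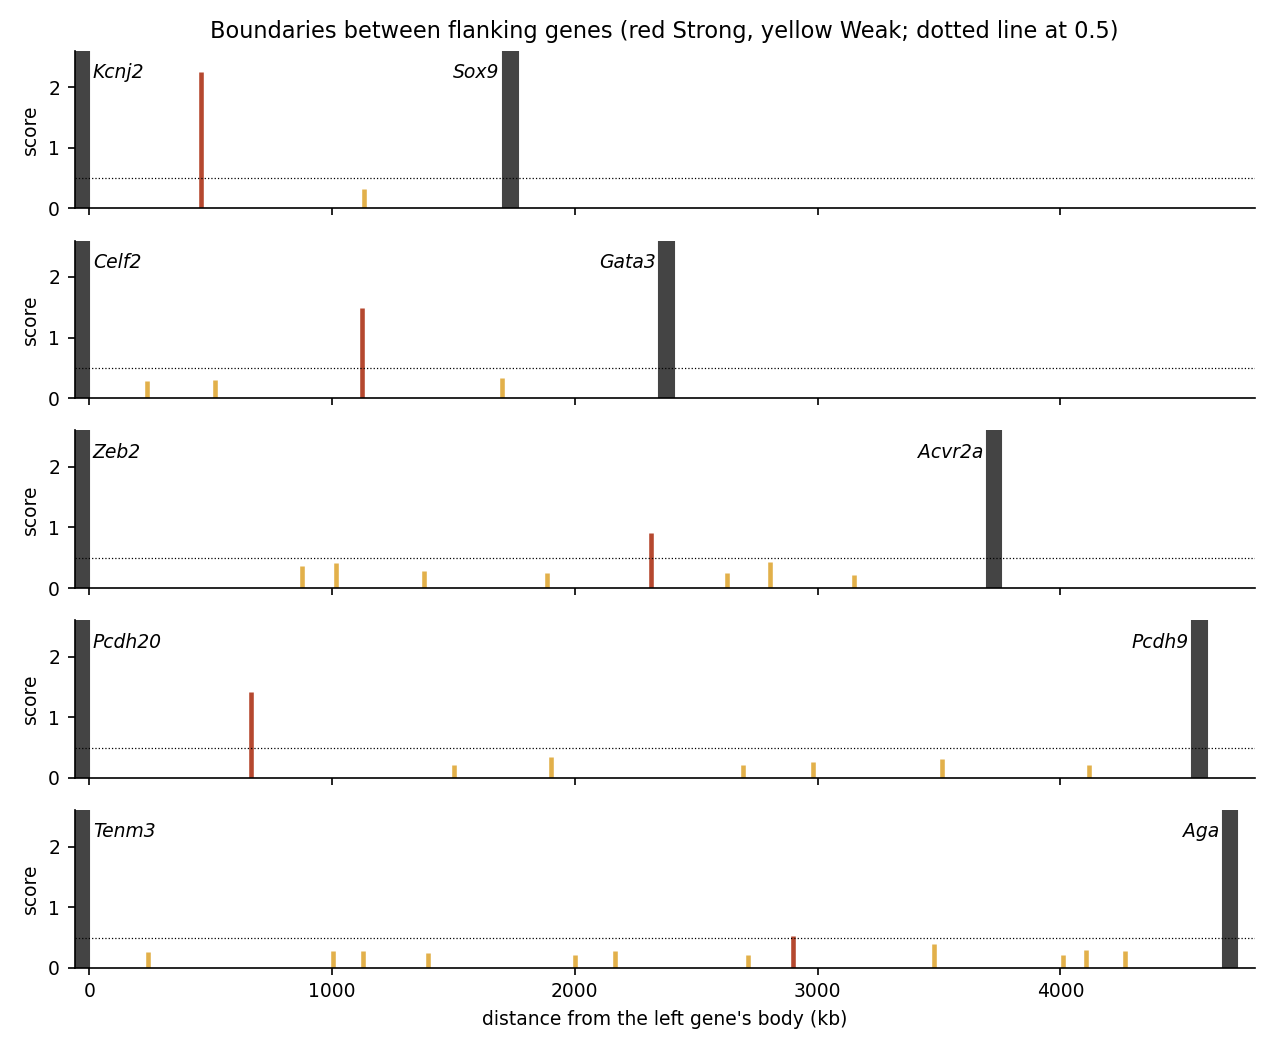
Each panel plots the desert boundaries between a pair of flanking genes (dark blocks, drawn at a fixed width) as bars of boundary score (no unit stated) against distance in kb from the left gene's body, Strong in red and Weak in yellow. Kcnj2 to Sox9 has 1 tall bar at 461 kb (2.26), Celf2 to Gata3 has 1 Strong bar of 4, and Tenm3 to Aga has 12 bars of which 1 passes the dotted line at 0.5.

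The widest stretches without a desert boundary were those of Ywhaq and Gm10330 (2361 kb), Pcdh9 and 4921530L21Rik (1991 kb) and the oncogene Myc and Gsdmc (1786 kb). In the first only 12.6% of reads could be placed uniquely, against 87.0% and 90.8% in the others. Neighbouring desert boundaries with no protein-coding gene between them enclosed 632 gene-free segments. Their median length was 322.5 kb (quartiles 188.8 and 515.0 kb), against 260.0 kb over all 7150 distances between neighbours. The longest, 1710 kb, lay between Epha7 and Map3k7. In 455 segments both ends were Weak, in 166 a single end was Strong and in 11 both were. The nearer neighbour of a desert boundary, of any position, was at a median of 260.0 kb, against 190.0 kb for the other boundaries.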

How the data were processed

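Domain boundaries of Olfr17-expressing neurons were analysed as deposited. Per the labels' design text, the authors merged the contacts of 2 biological replicates, aligned to GRCm38, and called boundaries on the merged matrix. The deposited list gives 5 kb bins, a class and a score with no stated unit. Caller, aligner and depth: not given in the sources used here. Genes came from GENCODE M21 (20807 protein-coding genes on autosomes) and sequence from the GRCm38 reference of C57BL/6J, while the mice were 129P2/OlaHsd. Each boundary was placed at its bin's midpoint, and every autosomal bin was classed by the same rule as background. CTCF matches (84922 core, 6323 strict on autosomes) were exact, on both strands. Read uniqueness was estimated with minimap2 2.31-r1302 from 100-base pieces taken every 500 bases, at a mapping quality of at least 30. NumPy 2.4.6, pandas 2.3.3 and SciPy 1.17.1 were used. The assignment of positions to genes was tested on simulated data. The members and gene lists were chosen with earlier results of these data known. Named genes flank the boundaries with the 10 highest and 5 lowest scores, the 5 farthest from a TSS, the widest and fullest stretches, the known long-range loci (some of which are not reported here), transcription factors on both sides, or are the 8 closest non-coding genes. Chrm3, Hira, Auts2 and Phlpp1 were named after their values were seen. Distances, gene definitions, Strong boundaries alone and mappable sequence were tried as alternatives.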

Additional observations from a re-analysis of the deposited data

How the results depend on the processing

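The score difference stayed below 0 and the density ratio below 1 under every alternative run. Leaving out each chromosome in turn gave density ratios of 0.522 to 0.536, score differences of -0.329 to -0.323 and Strong shares of 25.6% to 26.6%. The number of desert boundaries was 469 over 500 kb from a TSS, 327 when genes of any type counted and 363 for Strong ones alone. It was 1254 with the TSSs of every transcript. The density ratio was 0.609 over 50 kb, 0.607 over 500 kb, 0.224 for Strong boundaries alone and 0.459 in well-mapped sequence (at least 80% unique reads within 50 kb). The score difference was -0.269 over 50 kb, -0.347 over 200 kb and -0.0348 among Strong boundaries alone. It was -0.39 against boundaries with a TSS within 10 kb, -0.26 against those in gene bodies over 10 kb from a TSS, -0.101 against those over 100 kb and -0.349 against intergenic ones. The Strong share was 36.5% over 50 kb, 17.7% over 200 kb, 11.1% over 500 kb and 29.7% in well-mapped sequence. Developmental regulators flanked 19.6% of Strong desert boundaries, 7.75% by nearest TSS within 500 kb (bins 9.08%), 12.4% with transcription factors alone and 7.68% as the nearer gene (bins 8.70%). The non-coding share was 8.67% over 50 kb, 11.3% for Strong ones, 3.88% within 5 kb (bins 4.03%), 17.5% within 25 kb (bins 17.5%) and 4.81% for lncRNA genes. The core match share was 38.9% over 50 kb, 26.3% over 200 kb, 46.0% for Strong ones, 35.8% in well-mapped sequence, 20.0% within 5 kb (bins 13.5%), 55.3% within 25 kb (bins 48.5%) and 6.96% with the strict consensus. The farther neighbour lay at a median of 515.0 kb, and with Strong boundaries alone the nearer at 460.0 kb. The cause of these shifts was not tested. For the non-coding and core match shares, desert bins were not recounted at the other TSS limits or in well-mapped sequence. Single replicates could not be left out, since they were combined before boundaries were called. No paired analysis was possible because the list carries no replicate columns.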

Other observations

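The X chromosome, outside the rule, held 131 boundaries that met it otherwise, of 407 on that chromosome. Desert sequence made up 36.3% of the X, and its boundaries stood at 2.21 per Mb there against 2.65 per Mb in the rest. Their median score was 0.295, against 0.423 for the other X boundaries, and 22 (16.8%) were Strong, against 38.4% of the others. A CTCF core match lay within 10 kb of 25.2% of the X desert boundaries, against 24.5% of autosomal desert bins. The share of X desert bins was not computed.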
